A study of Rattus norvegicus with 16 samples.

Results

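Secreted and membrane proteins enter the endoplasmic reticulum (ER) through a chain of machines whose genes form the module described here. The signal recognition particle (SRP) binds a nascent signal peptide and brings the ribosome to its receptor on the ER membrane, where the Sec61 channel, helped by the translocon-associated protein (TRAP) complex, takes the chain in and signal peptidase cuts off the signal peptide. Cargo then leaves in vesicles coated by COPII, is tethered at the Golgi by TRAPP complexes, and escaped ER proteins return in COPI vesicles. In beta cells, whose main product is insulin, this is the route that preproinsulin takes.

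The module was chosen by gene symbol alone: all probe sets whose single annotated symbol begins with Sec11, Sec13, Sec16, Sec22, Sec23, Sec24, Sec31, Sec61, Sec62, Sec63, Ssr, Spcs, Srp followed by a digit, Tmed or Trappc, or is that of a COPI coat subunit, a Sar1 GTPase or an SRP receptor subunit. The rule gave 108 probe sets of 71 genes, of 31099 probe sets and 14217 singly annotated genes on the array. Of these, 104 probe sets of 70 genes were bright enough to be tested. The 4 that were not are an additional probe set each of Copg2, Sec31a and Sec61a1, and the only probe set of Tmed6. A gene is represented by its brightest probe set unless stated otherwise. The prefix Ssr also takes in Ssrp1, a chromatin factor with no known place in this route, which is given apart.

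Total RNA of pancreatic islets from male Wistar rats of 180 to 200 g was measured on 16 Affymetrix oligonucleotide arrays. All islets had first been kept for 1 week without serum at 10 mmol/l glucose, and 1000 islets per condition then spent 18 h at 2, 5, 10 or 30 mmol/l, with albumin at 5 g/l throughout. Each concentration has 4 arrays, from 4 experiments on different islet preparations. The labels number the replicates 1 to 4, and the arrays of a number are taken as 1 preparation, since they deviated together. Values are signals in linear, scaled units, listed in the order of replicates 1 to 4, and levels of different genes are not set against each other.

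Each array had a mean of 150.0 to 150.1 after trimming of 2% at each end, and medians ran between 41.5 and 48.1. The signals are scaled, so the equal means can come from the scaling. They do not show that the arrays were of like brightness before it. The number of arrays limits the precision. Whole islets hold several endocrine cell types, and a lower signal of a gene in fewer cells of a type cannot be told apart from less RNA per cell. Of 8 islet hormone and endocrine markers, all were tested, and the insulin gene Ins1 had signals of 5976 to 11424 over the 16 arrays. None of the 13 acinar enzyme markers with a probe set was bright enough to be tested, and their summed signal was 91.3 to 138 at 2 mmol/l, then 130.0 to 153 at 5 mmol/l, then 139 to 165 at 10 mmol/l and then 119 to 144 at 30 mmol/l. The acinar genes Prss2 and Amy2a3 were at or under the floor of 3.4 in 15 and 11 of the 16 arrays. The other acinar markers were so in fewer arrays, from 0 (Cpb1) to 6 (Cpa1), and Cela1 reached 58.0. Each glucose concentration was run on its own fluidics module, so glucose and module cannot be told apart.

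Of the steps between neighbouring concentrations, that between 5 and 10 mmol/l held the most calls. At 10 mmol/l, 47 of 104 member probe sets were higher than at 5 mmol/l and 4 were lower, where 10.0% of all 18625 probe sets tested were higher and 11.1% lower (limma, two-sided, adjusted p under 0.05 throughout). Represented by their brightest probe sets, 35 of 70 genes were higher and 4 lower. The median log2 change of the members was 0.30, against 0.02 for all probe sets tested. After median centring of the arrays, 31 probe sets were higher and 7 lower at this step. The spiked hybridization controls also moved with the groups: their mean log2 signal per array was 9.46 to 9.77 at 2 mmol/l, then 9.61 to 10.07 at 5 mmol/l, then 10.06 to 10.23 at 10 mmol/l and then 9.82 to 9.98 at 30 mmol/l. Their part in the changes of the members was not tested.

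The steps on either side held fewer. At 30 mmol/l, 24 member probe sets were higher than at 10 mmol/l and 3 lower, where the shares over all probe sets were 3.26% and 3.56%, and the median change was 0.15 for members and -0.04 for all. The number higher was 13 when the array of replicate 4 at 10 mmol/l, of replicate 2 at 30 mmol/l or of replicate 3 at 30 mmol/l was left out, and the number lower was 7 with the replicate number as a block. At 5 mmol/l, 6 member probe sets were higher than at 2 mmol/l and 0 lower, where 1.66% and 0.94% of all probe sets were, and the median change was -0.03 for members and -0.02 for all. These few calls moved with the processing: 11 were higher and 8 lower with the replicate block, and 4 higher and 8 lower after quantile normalization. When 1 array was left out, 0 to 7 were higher. The number was 0 without replicate 2 at 2 mmol/l or replicate 1 at 5 mmol/l. It was 2 without replicate 4 at 2 mmol/l or replicate 2 or 4 at 5 mmol/l, and 3 without replicate 1 at 2 mmol/l, replicate 3 at 5 mmol/l or replicate 3 at 30 mmol/l. Across the wider span, 44 member probe sets were higher and 10 lower at 10 than at 2 mmol/l, where 15.6% and 16.9% of all probe sets were, with medians of 0.27 for members and 0.02 for all. The comparisons share arrays, since the 10 mmol/l arrays enter 3 of the 4 and the 2 and 5 mmol/l arrays enter 2 each.

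Member genes are bright, with a median log2 level of 9.72 against 7.03 for all probe sets tested, and bright probe sets are called more often. Of the 52 members at or above the members' median level, 37 (71.2%) were higher at 10 than at 5 mmol/l, against 27.8% of the 1559 probe sets of all kinds at or above that level, a set chosen after seeing the data. For 30 over 10 mmol/l the shares were 40.4% of these members (21 of 52) and 10.4% of the bright probe sets, and for 10 over 2 mmol/l they were 63.5% (33 of 52) and 44.3%. For 5 over 2 mmol/l they were 3.85% (2 of 52) and 7.89%, so that the bright members had the smaller share there. Lower in that range were 0 of 52 members at 5 over 2 mmol/l, where 0.962% of the bright probe sets were, and 2 at 10 over 5 mmol/l, where 15.0% were. At 10 over 2 mmol/l, 4 members were lower against 14.9%, and at 30 over 10 mmol/l, 1 was lower against 5.71%. Median log2 changes of the 1559 bright probe sets were 0.1 (5 over 2), 0.09 (10 over 5), 0.19 (10 over 2) and 0.02 (30 over 10 mmol/l). Those of all 104 tested members were -0.03, 0.3, 0.27 and 0.15 in the same order. The F-test over the 4 concentrations called 75 of 104 members (72.1%), where it called 41.8% of all probe sets, and 49 of the 52 bright members (94.2%), where it called 73.0% of the bright probe sets. Of the 75 called members, 55 (73.3%) had their highest mean at 30 mmol/l and 22 (29.3%) were higher at each step, and of all 7785 called probe sets the shares were 26.4% and 12.9%. The lowest mean lay at 2 mmol/l for 33 of the 75 (44.0%) and at 5 mmol/l for 26 (34.7%), against 30.2% and 14.3% of all called probe sets. In the fit without the replicate block this is an order of means only, since 0 members were called lower at 5 than at 2 mmol/l. With the block some members were called lower there, as counted above.

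**Figure D1:**
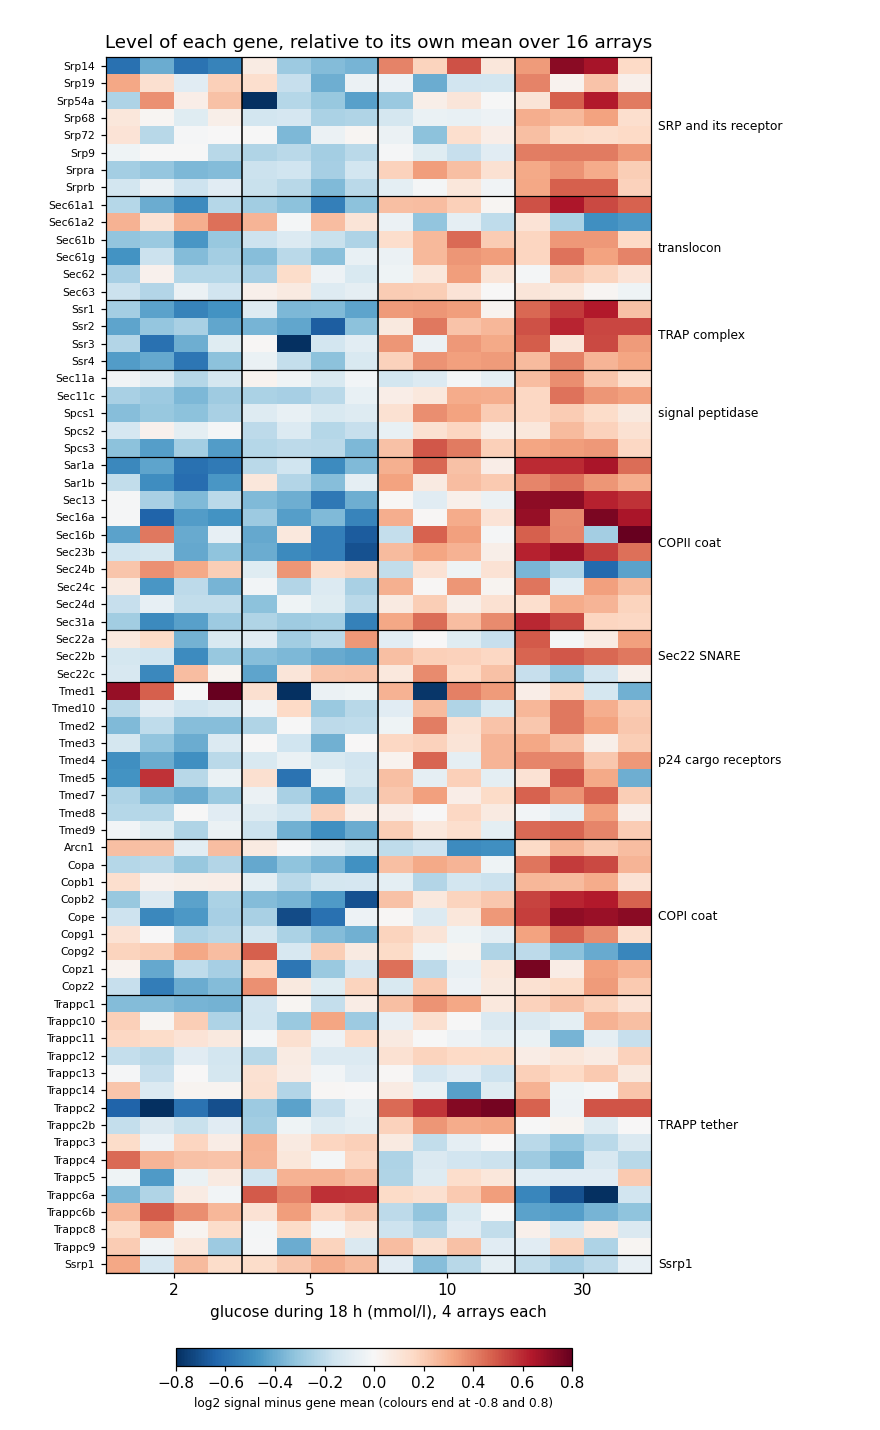
Log2 signal of the brightest tested probe set of each of 70 genes minus that gene's mean over the 16 arrays (colour), with genes in rows by their role and arrays in columns by glucose concentration from low to high, replicates 1 to 4 in each block. Many rows turn from blue at 2 and 5 mmol/l to red at 10 and 30 mmol/l, while the TRAPP rows are mixed. Among the rows that run the other way are Sec24b, Sec61a2, Trappc4, Trappc6b, Copg2 and Ssrp1.

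**Figure D2:**
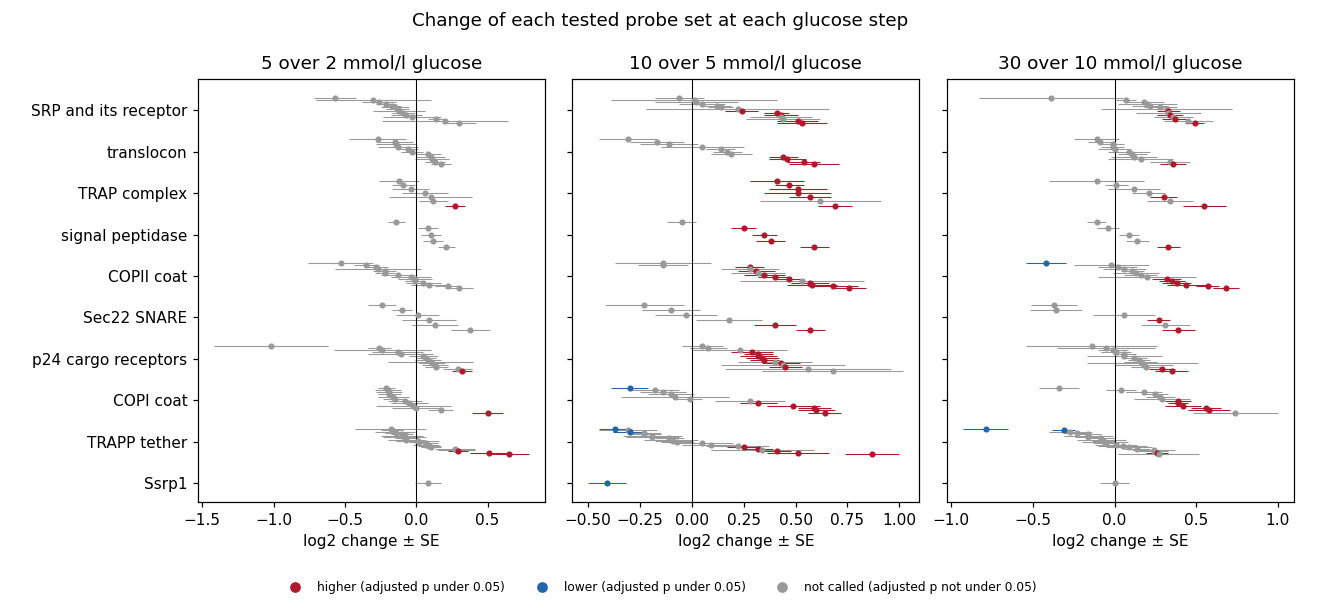
Log2 change ± SE (horizontal axis) of each tested member probe set for 5 over 2, 10 over 5 and 30 over 10 mmol/l glucose, 4 arrays per group, by role (vertical axis), with calls at an adjusted p under 0.05 in red (higher) and blue (lower). The left panel holds 6 probe sets called higher, the middle panel 47 higher and 4 lower, and the right panel 24 higher and 3 lower.

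Among the SRP subunits and the SRP receptor, 5 of 14 tested probe sets were higher and 0 lower at 10 than at 5 mmol/l, with a median log2 change of 0.23 (0.15 after median centring). At 30 against 10 mmol/l, 4 were higher and 0 lower, with a median of 0.32. For this and the other roles, the shares of all probe sets tested were 10.0% higher and 11.1% lower at 10 over 5 mmol/l. At 30 over 10 mmol/l they were 3.26% and 3.56%. Srpra, the alpha subunit of the receptor, had signals of 1749, 1702, 1644 and 1659.9 at 2 mmol/l, then 1874, 1894, 1754 and 1903 at 5 mmol/l. Srpra had 2399, 2660.5, 2492 and 2295 at 10 mmol/l, then 2606, 2704, 2598 and 2420.0 at 30 mmol/l. The 10 mmol/l arrays all lay above the 5 mmol/l ones, and the 10 and 30 mmol/l arrays overlapped. Srpra was higher at 10 than at 5 mmol/l by 0.41 ± 0.06 on the log2 scale (1.32-fold, adjusted p = 0.000108), with a difference of 0.07 ± 0.06 (adjusted p = 0.59) for 30 over 10 mmol/l. Srp14, which with Srp9 forms the pair that slows elongation while the ribosome is brought to the membrane, had 1738, 1992, 1740.3 and 1816 at 2 mmol/l, then 2752, 2147, 2068 and 2033 at 5 mmol/l. Srp14 had 3458, 2966, 3733 and 2796 at 10 mmol/l, then 3329.8, 4329, 4148 and 2939 at 30 mmol/l. Its 5 mmol/l arrays did not overlap the 2 or the 10 mmol/l ones, while those at 30 mmol/l were the most scattered. Srp14 was higher at 10 than at 5 mmol/l by 0.53 ± 0.12 (adjusted p = 0.00457) and higher at 10 than at 2 mmol/l by 0.82 ± 0.12 (adjusted p = 5.27e-05), 1.77-fold.

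Srp9 was called at the last step instead, with signals of 1575, 1605, 1606 and 1382 at 2 mmol/l, then 1362, 1389.9, 1334 and 1387 at 5 mmol/l. Srp9 had 1598, 1509, 1421 and 1515 at 10 mmol/l, then 2140.0, 2153, 2151 and 2050.3 at 30 mmol/l. Every 30 mmol/l array stood above all the others, and the 2 and 10 mmol/l arrays overlapped. It was higher at 30 than at 10 mmol/l by 0.49 ± 0.06 (adjusted p = 9.55e-05), 1.41-fold, and its difference for 10 over 5 mmol/l, 0.14 ± 0.06 (adjusted p = 0.12), was not called. Whether Srp9 and Srp14 differ in their response was not tested. The brightest probe sets of Srp68 and of the receptor's beta subunit Srprb were also higher at 30 than at 10 mmol/l, Srp68 by 0.33 ± 0.07 (adjusted p = 0.00535) and Srprb by 0.37 ± 0.08 (adjusted p = 0.00565). Srp54a, the GTPase subunit that binds the signal peptide, averaged 916 ± 162 at 2 mmol/l, then 619 ± 121 at 5 mmol/l, then 825 ± 95.9 at 10 mmol/l and then 1129 ± 169 at 30 mmol/l (mean ± SD, n = 4 each). Its brightest probe set was not called in any comparison of neighbouring concentrations, but with the replicate block the adjusted p was 0.00022 for 5 over 2, 0.000202 for 10 over 5 and 0.000485 for 30 over 10 mmol/l. A dimmer Srp54a probe set was higher at 10 than at 5 mmol/l by 0.51 ± 0.10 (adjusted p = 0.00107). It was also higher at 10 than at 2 mmol/l by 0.36 ± 0.10 (adjusted p = 0.00954), where the brightest had -0.14 ± 0.15 (adjusted p = 0.524). The dimmest was not called in any comparison. Srp19, which helps SRP assemble, was lower at 10 than at 2 mmol/l (-0.32 ± 0.12 (adjusted p = 0.0461)), a call lost when any 1 of 9 arrays was left out (adjusted p up to 0.148) and with eBayes without trend, no level filter and median centring.

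Of the Sec61 channel and its partners Sec62 and Sec63, which take in chains after their synthesis, 4 of 11 tested probe sets were higher and 0 lower at 10 than at 5 mmol/l, with a median log2 change of 0.17 (0.09 after median centring). All 3 subunits of the main channel, Sec61a1, Sec61b and Sec61g, were among them. Sec61b, the small beta subunit, had signals of 2879, 2909, 2595 and 2892 at 2 mmol/l, then 3187, 3309, 3166 and 3009 at 5 mmol/l. Sec61b had 3946, 4282, 4887 and 4119 at 10 mmol/l, then 4030.0, 4544, 4549 and 3997 at 30 mmol/l. The arrays at 10 mmol/l lay wholly above those at 5 mmol/l, those at 5 mmol/l wholly above those at 2 mmol/l, and the 30 mmol/l arrays lay within the range at 10 mmol/l. Sec61b was higher at 10 than at 5 mmol/l by 0.44 ± 0.07 (adjusted p = 0.000235), 1.36-fold, and its difference for 30 over 10 mmol/l was -0.01 ± 0.07 (adjusted p = 0.976). The step of 5 over 2 mmol/l, 0.17 ± 0.07 (adjusted p = 0.244), had the same sign in 4 of 4 preparations and was not called.

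Sec61g, the gamma subunit, gave 2882, 3558, 3148 and 3318 at 2 mmol/l, then 3164, 3454, 3183 and 3843 at 5 mmol/l. Sec61g had 3876, 4802, 5110.1 and 5064 at 10 mmol/l, then 4511, 5421, 5009.5 and 5277 at 30 mmol/l. Its replicate 1 was the lowest array at each concentration, and the 5 and 10 mmol/l arrays were apart. Sec61g was higher at 10 than at 5 mmol/l by 0.46 ± 0.09 (adjusted p = 0.00152). Sec61a1, which forms the pore, gave 1188, 1058, 982 and 1186 at 2 mmol/l, then 1145, 1108, 951 and 1108 at 5 mmol/l. Sec61a1 had 1642, 1650.5, 1586 and 1407 at 10 mmol/l, then 1977, 2174, 2008 and 1926 at 30 mmol/l. Its 2 and 5 mmol/l arrays overlapped, and those at 10 and at 30 mmol/l each formed a separate, higher group. Sec61a1 was higher at 10 than at 5 mmol/l by 0.54 ± 0.08 (adjusted p = 0.000105) and, unlike the brightest probe sets of the other translocon genes, was also called higher at 30 than at 10 mmol/l, by 0.36 ± 0.08 (adjusted p = 0.0108). That call was lost with quantile normalization. The difference between these subunits at that step was not tested.

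The paralog Sec61a2, a second form of the pore subunit, ran the other way, with 161, 144, 163 and 180.3 at 2 mmol/l, then 161, 131, 158 and 143 at 5 mmol/l. Sec61a2 had 129, 106, 126 and 115 at 10 mmol/l, then 143, 111, 94.3 and 96.5 at 30 mmol/l. All its 10 mmol/l arrays were below all 2 and 5 mmol/l arrays, and the 30 mmol/l arrays were scattered around the 10 mmol/l ones. Sec61a2 was lower at 10 than at 2 mmol/l (-0.44 ± 0.14 (adjusted p = 0.0171)). That call was lost when any 1 of these arrays was left out: replicate 4 at 2 mmol/l and replicate 2 at 10 mmol/l (adjusted p up to 0.0574). Sec62 and Sec63 were higher at 10 than at 2 mmol/l by 0.30 ± 0.10 (adjusted p = 0.0247) and 0.28 ± 0.07 (adjusted p = 0.00583) in their brightest probe sets, and the 3 dimmer Sec63 probe sets were not called in any comparison. With the replicate block 1 of these was called lower for 10 over 2 mmol/l (-0.32, adjusted p = 0.0467), opposite to the brightest. The Sec62 call was lost when any 1 of 4 arrays was left out (adjusted p up to 0.098) and with eBayes without trend, no level filter, median centring and quantile normalization, and the Sec63 call with median centring.

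The TRAP complex, 4 membrane proteins bound to the channel, had the highest median change of any role at 10 over 5 mmol/l: 6 of 7 tested probe sets were higher and 0 lower at 10 than at 5 mmol/l, with a median log2 change of 0.51. All 4 genes were called in their brightest probe sets. Ssr4, the delta subunit, had 2668, 2739, 2439 and 2903 at 2 mmol/l, then 3513, 3189.8, 2904 and 3342 at 5 mmol/l. Ssr4 had 4129, 4657, 4568 and 4608 at 10 mmol/l, then 4328, 4801, 4392 and 4526 at 30 mmol/l. Each concentration up to 10 mmol/l lay above the one before with no overlap, and the 10 and 30 mmol/l arrays overlapped. Ssr4 was higher at 10 than at 5 mmol/l by 0.47 ± 0.07 (adjusted p = 9.68e-05) and at 10 than at 2 mmol/l by 0.74 ± 0.07 (adjusted p = 4.12e-07), 1.67-fold. Its call for 5 over 2 mmol/l, 0.27 ± 0.07 (adjusted p = 0.0497), was marginal and was lost when any 1 of these arrays was left out: replicates 1, 2, 3 and 4 at 2 mmol/l, replicates 1, 2 and 4 at 5 mmol/l, replicates 2, 3 and 4 at 10 mmol/l and replicates 1, 2, 3 and 4 at 30 mmol/l (adjusted p up to 0.149) and with eBayes without trend, no level filter, median centring and quantile normalization.

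Ssr2, the beta subunit, gave 961, 1037, 1078 and 963 at 2 mmol/l, then 995, 964, 815 and 1024 at 5 mmol/l. Ssr2 had 1362, 1724, 1505 and 1547 at 10 mmol/l, then 1832, 1967, 1866 and 1864 at 30 mmol/l. The 2 and 5 mmol/l arrays overlapped and the 10 and 30 mmol/l groups stood apart, each above the one before. Ssr2 was higher at 10 than at 5 mmol/l by 0.69 ± 0.08 (adjusted p = 9.55e-06), 1.62-fold, and at 30 than at 10 mmol/l by 0.30 ± 0.08 (adjusted p = 0.033). The second of these calls was lost when any 1 of these arrays was left out: replicates 1, 3 and 4 at 10 mmol/l and replicates 1, 2, 3 and 4 at 30 mmol/l (adjusted p up to 0.103) and with eBayes without trend, no level filter and quantile normalization. Ssr1, the alpha subunit, gave 2132, 1913, 1777 and 1849.5 at 2 mmol/l, then 2396, 2007, 2016 and 1921 at 5 mmol/l. Ssr1 had 3254, 3285, 3249.5 and 2619.5 at 10 mmol/l, then 3544, 3785, 3999 and 3029 at 30 mmol/l. Replicate 4 was the lowest of the 10 mmol/l and of the 30 mmol/l arrays, and still lay above every 5 mmol/l array. Ssr1 was higher at 10 than at 5 mmol/l by 0.57 ± 0.10 (adjusted p = 0.00033), and Ssr3, the gamma subunit, by 0.51 ± 0.16 (adjusted p = 0.0279). The Ssr3 call was lost when any 1 of 4 arrays was left out (adjusted p up to 0.0942) and with eBayes without trend, no level filter, median centring and quantile normalization.

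Signal peptidase has the catalytic subunits Sec11a and Sec11c and the accessory subunits Spcs1, Spcs2 and Spcs3. Here 4 of 5 tested probe sets were higher and 0 lower at 10 than at 5 mmol/l, with a median log2 change of 0.35 (0.19 after quantile normalization), and 1 was higher at 30 than at 10 mmol/l. Spcs3, which the enzyme needs for activity in yeast, had 3162, 2920.5, 3292 and 2911 at 2 mmol/l, then 3388, 3424, 3413 and 3089 at 5 mmol/l. Spcs3 had 4663, 5602, 5282 and 4529.5 at 10 mmol/l, then 4926, 4999, 5046 and 4455 at 30 mmol/l. The 10 and 30 mmol/l arrays together lay above all others and overlapped each other. Spcs3 was higher at 10 than at 5 mmol/l by 0.59 ± 0.07 (adjusted p = 1.62e-05), 1.5-fold, with a difference of -0.04 ± 0.07 (adjusted p = 0.815) for 30 over 10 mmol/l. Spcs1 gave 3341, 3422, 3372 and 3536 at 2 mmol/l, then 3942, 4059, 3887 and 3933 at 5 mmol/l. Spcs1 had 4605, 5464, 5286 and 4870.4 at 10 mmol/l, then 4738, 4863, 4674 and 4457 at 30 mmol/l. Its groups up to 10 mmol/l followed each other without overlap, and 3 of 4 preparations were lower at 30 than at 10 mmol/l. Spcs1 was higher at 10 than at 5 mmol/l by 0.35 ± 0.06 (adjusted p = 0.000275); for 5 over 2 mmol/l the difference was 0.21 ± 0.06 (adjusted p = 0.0621), with an adjusted p of 0.0109 under the replicate block.

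The catalytic subunits differed in where they were called. Sec11c gave 2430.3, 2386, 2266 and 2387 at 2 mmol/l, then 2448, 2428, 2507 and 2795 at 5 mmol/l. Sec11c had 3019, 3083, 3572 and 3556 at 10 mmol/l, then 3266, 3932, 3716 and 3657 at 30 mmol/l. Its 2 and 5 mmol/l arrays overlapped, and all 10 mmol/l arrays were above both. Sec11c was higher at 10 than at 5 mmol/l by 0.38 ± 0.07 (adjusted p = 0.00118). Sec11a averaged 1375 ± 80.2 at 2 mmol/l, then 1456 ± 63.1 at 5 mmol/l, then 1408 ± 54.8 at 10 mmol/l and then 1773 ± 122 at 30 mmol/l (mean ± SD, n = 4 each) and was called only for 30 over 10 mmol/l, higher by 0.33 ± 0.07 (adjusted p = 0.00557). The difference between the paralogs was not tested.

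**Figure D3:**
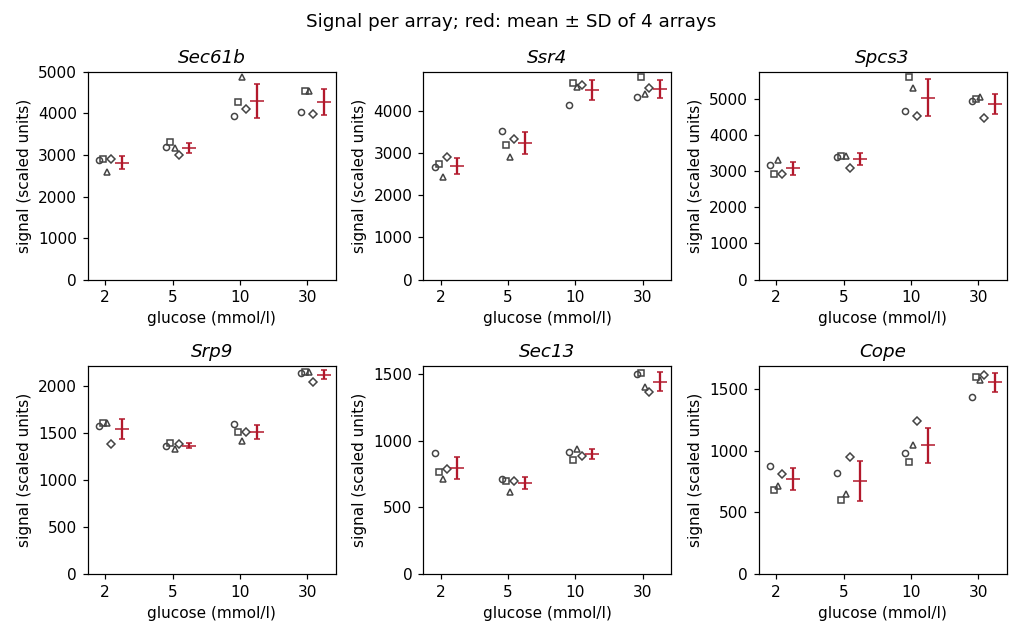
Signal in scaled units (vertical axis, from 0) against glucose in mmol/l (horizontal axis, groups evenly spaced) for 6 member genes, with 1 symbol per array, its shape marking the replicate number, and the mean ± SD of 4 arrays in red. Sec61b, Ssr4 and Spcs3 in the upper row overlap between 10 and 30 mmol/l, whereas Srp9, Sec13 and Cope in the lower row have all 30 mmol/l arrays above all others.

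The COPII coat, which buds cargo from the ER, was next to TRAP in its median change at 10 over 5 mmol/l: 9 of 14 tested probe sets were higher and 0 lower at 10 than at 5 mmol/l, with a median log2 change of 0.38. At 30 over 10 mmol/l, 6 were higher and 1 lower, with a median of 0.18, and after quantile normalization 3 were higher and 0 lower. Sar1a, the GTPase that starts the coat, gave 1225, 1308, 1158 and 1182 at 2 mmol/l, then 1511, 1566, 1236 and 1374 at 5 mmol/l. Sar1a had 2131, 2410.0, 2064 and 1822 at 10 mmol/l, then 2654, 2654, 2753 and 2391 at 30 mmol/l. The 10 mmol/l arrays were all above the 5 mmol/l ones, and the lowest 30 mmol/l array lay just below the highest 10 mmol/l array. Sar1a was higher at 10 than at 5 mmol/l by 0.57 ± 0.09 (adjusted p = 0.000144), at 10 than at 2 mmol/l by 0.78 ± 0.09 (adjusted p = 2.68e-06), 1.72-fold, and at 30 than at 10 mmol/l by 0.32 ± 0.09 (adjusted p = 0.0358). The last call was lost when any 1 of these arrays was left out: replicates 1, 3 and 4 at 10 mmol/l and replicates 1, 2 and 3 at 30 mmol/l (adjusted p up to 0.113) and with eBayes without trend, no level filter, median centring and quantile normalization. For 5 over 2 mmol/l the difference of 0.22 ± 0.09 (adjusted p = 0.211) had an adjusted p of 0.0365 under the replicate block, while the other Sar1a probe set went the opposite way there (-0.22, adjusted p = 0.0286). Its paralog Sar1b was higher at 10 than at 5 mmol/l by 0.35 ± 0.10 (adjusted p = 0.0127), a call lost with median centring.

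Sec23b, the inner coat subunit that activates the Sar1 GTPase, gave 1992, 2021, 1674 and 1783 at 2 mmol/l, then 1688, 1564, 1523 and 1371 at 5 mmol/l. Sec23b had 2648, 2776, 2701 and 2304 at 10 mmol/l, then 3418, 3559, 3272 and 3027 at 30 mmol/l. The lowest mean was at 5 mmol/l, and all 10 and 30 mmol/l arrays lay above all arrays at the lower concentrations. Sec23b was higher at 10 than at 5 mmol/l by 0.76 ± 0.08 (adjusted p = 3.76e-06), 1.7-fold, and at 30 than at 10 mmol/l by 0.35 ± 0.08 (adjusted p = 0.0157). The call at 30 mmol/l was lost when any 1 of these arrays was left out: replicate 4 at 10 mmol/l and replicate 2 at 30 mmol/l (adjusted p up to 0.0569) and with eBayes without trend and quantile normalization, and the difference for 5 over 2 mmol/l, -0.28 ± 0.08 (adjusted p = 0.0816), had an adjusted p of 0.00358 under the block. Of the Sec24 subunits, which select cargo, Sec24d was higher at 10 than at 5 mmol/l by 0.28 ± 0.07 (adjusted p = 0.00644), a call lost with median centring and quantile normalization. Sec24b gave 182, 201, 193 and 179 at 2 mmol/l, then 146, 199.8, 172 and 177 at 5 mmol/l. Sec24b had 136, 169, 152 and 169 at 10 mmol/l, then 121, 132, 102 and 116 at 30 mmol/l. Its arrays were lowest at 30 mmol/l without overlap with any other concentration. Sec24b was lower at 30 than at 10 mmol/l (-0.42 ± 0.12 (adjusted p = 0.0404)), a call lost when any 1 of these arrays was left out: replicate 4 at 2 mmol/l, replicate 3 at 5 mmol/l, replicates 2, 3 and 4 at 10 mmol/l and replicates 1, 3 and 4 at 30 mmol/l (adjusted p up to 0.131) and with median centring and quantile normalization. For 10 over 2 mmol/l, Sec24b differed by -0.27 ± 0.12 (adjusted p = 0.0882), with an adjusted p of 0.0363 under the block. The other Sec24b probe set was not called for 30 over 10 mmol/l (-0.02 ± 0.23 (adjusted p = 0.981)). It was lower at 10 than at 2 mmol/l (-0.68 ± 0.23 (adjusted p = 0.0282)).

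Sec13, an outer coat subunit that is also part of the nuclear pore, had the largest increase among members called at the last step. Its signals were 908, 765, 715 and 788 at 2 mmol/l, then 715, 698, 616 and 698 at 5 mmol/l. Sec13 had 920.3, 859, 939 and 885 at 10 mmol/l, then 1504, 1509.5, 1403 and 1368 at 30 mmol/l. The 30 mmol/l arrays stood far above the rest, the 10 mmol/l arrays overlapped those at 2 mmol/l, and the lowest mean was at 5 mmol/l. Sec13 was higher at 30 than at 10 mmol/l by 0.68 ± 0.08 (adjusted p = 3.37e-05), 1.61-fold, and at 10 than at 5 mmol/l by 0.40 ± 0.08 (adjusted p = 0.0011). Differences of 0.19 ± 0.08 (adjusted p = 0.0774) for 10 over 2 mmol/l and -0.22 ± 0.08 (adjusted p = 0.158) for 5 over 2 mmol/l had adjusted p of 0.0277 and 0.0424 under the block. Sec31a, its partner in the outer coat, gave 142, 121, 128 and 141 at 2 mmol/l, then 146, 142, 143 and 119 at 5 mmol/l. Sec31a had 214, 235, 204 and 224 at 10 mmol/l, then 262, 249, 194 and 193 at 30 mmol/l. All 10 and 30 mmol/l arrays were above all others, and the 2 higher concentrations overlapped. Sec31a was higher at 10 than at 5 mmol/l by 0.68 ± 0.12 (adjusted p = 0.000441), 1.6-fold, with a difference of 0.02 ± 0.12 (adjusted p = 0.951) for 30 over 10 mmol/l. Sec16a, the scaffold of ER exit sites, gave 670.1, 434, 495 and 486 at 2 mmol/l, then 552, 497, 529 and 468 at 5 mmol/l. Sec16a had 827, 680.4, 830.1 and 729 at 10 mmol/l, then 1093, 881, 1137 and 1062 at 30 mmol/l. Its 10 mmol/l arrays were above, and its 30 mmol/l arrays further above, all at the lower concentrations. Sec16a was higher at 10 than at 5 mmol/l by 0.58 ± 0.12 (adjusted p = 0.00153) and at 30 than at 10 mmol/l by 0.44 ± 0.12 (adjusted p = 0.0281), the call at 30 mmol/l being lost when any 1 of these arrays was left out: replicates 2 and 4 at 10 mmol/l and replicates 1, 3 and 4 at 30 mmol/l (adjusted p up to 0.0912) and with eBayes without trend, no level filter and quantile normalization.

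The 3 Sec22 genes share a name with the yeast SNARE of ER-to-Golgi fusion, and Sec22b is its functional mammalian form. Sec22b gave 1146, 1131, 889 and 1022 at 2 mmol/l, then 998, 984, 954 and 941 at 5 mmol/l. Sec22b had 1489.9, 1437, 1430.3 and 1412 at 10 mmol/l, then 1743, 1781, 1731 and 1689.9 at 30 mmol/l. The 10 and 30 mmol/l arrays formed separate, narrow groups above the overlapping 2 and 5 mmol/l arrays. Sec22b was higher at 10 than at 5 mmol/l by 0.57 ± 0.07 (adjusted p = 1.96e-05), 1.49-fold, and at 30 than at 10 mmol/l by 0.27 ± 0.07 (adjusted p = 0.0318), the second call being lost when any 1 of these arrays was left out: replicates 2, 3 and 4 at 10 mmol/l and replicates 1, 2 and 3 at 30 mmol/l (adjusted p up to 0.086) and with eBayes without trend, median centring and quantile normalization. Sec22a gave 232, 245, 169 and 202 at 2 mmol/l, then 207, 181, 189 and 279.7 at 5 mmol/l. Sec22a had 207, 220.2, 206 and 193 at 10 mmol/l, then 308, 218, 229.6 and 276 at 30 mmol/l, with overlap between all neighbouring groups. Sec22c gave 169, 129, 219 and 188 at 2 mmol/l, then 138, 197, 215 and 217 at 5 mmol/l. Sec22c had 196, 240.5, 207 and 217 at 10 mmol/l, then 163, 149, 166 and 190.5 at 30 mmol/l, and its 30 mmol/l arrays lay below its 10 mmol/l ones. Neither was called in any comparison without the block, with 0.31 ± 0.15 (adjusted p = 0.246) for Sec22a and -0.36 ± 0.16 (adjusted p = 0.196) for Sec22c for 30 over 10 mmol/l. The role's median change at 10 over 5 mmol/l, 0.08, was 0.00 after median centring.

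The p24 proteins, coded by Tmed genes, cycle between ER and Golgi and take part in the sorting of cargo such as lipid-anchored proteins. Of these, 7 of 14 tested probe sets were higher and 0 lower at 10 than at 5 mmol/l, with a median log2 change of 0.35. After median centring 4 were higher. Tmed2 gave 2958, 3273, 2979 and 2978 at 2 mmol/l, then 3189, 3759, 3258 and 3274 at 5 mmol/l. Tmed2 had 3674, 5001, 4096 and 4412 at 10 mmol/l, then 4386, 5049, 4714 and 4383 at 30 mmol/l. Replicate 2 was the highest at each concentration, and its 5 mmol/l value exceeded the lowest at 10 mmol/l, so these groups overlapped. Tmed2 was higher at 10 than at 5 mmol/l by 0.34 ± 0.08 (adjusted p = 0.00634), in 4 of 4 preparations, and higher at 10 than at 2 mmol/l by 0.49 ± 0.08 (adjusted p = 0.000209). Both calls were lost with quantile normalization. Tmed7 gave 2278, 2119.8, 2059 and 2205 at 2 mmol/l, then 2616, 2261, 1974 and 2358 at 5 mmol/l. Tmed7 had 3145, 3392, 2811 and 3005 at 10 mmol/l, then 3751, 3474, 3745 and 3103 at 30 mmol/l. Its 10 mmol/l arrays were above all at 5 mmol/l, and the 30 mmol/l arrays overlapped them. Tmed7 was higher at 10 than at 5 mmol/l by 0.43 ± 0.09 (adjusted p = 0.00136).

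Tmed9 had its lowest mean at 5 mmol/l and gave 1911, 1812, 1642 and 1871 at 2 mmol/l, then 1719, 1483, 1379 and 1470.4 at 5 mmol/l. Tmed9 had 2223, 2054, 2122 and 1837 at 10 mmol/l, then 2646, 2670.5, 2541 and 2226 at 30 mmol/l. The 2 and 10 mmol/l arrays overlapped, and the 30 mmol/l arrays were above both. Tmed9 was higher at 10 than at 5 mmol/l by 0.45 ± 0.08 (adjusted p = 0.000797) and at 30 than at 10 mmol/l by 0.29 ± 0.08 (adjusted p = 0.041), the last call being lost when any 1 of these arrays was left out: replicate 4 at 2 mmol/l, replicates 2, 3 and 4 at 10 mmol/l and replicates 1, 2 and 3 at 30 mmol/l (adjusted p up to 0.122) and with eBayes without trend, no level filter, median centring and quantile normalization. Under the block, its differences of -0.26 ± 0.08 (adjusted p = 0.107) for 5 over 2 mmol/l and 0.19 ± 0.08 (adjusted p = 0.0993) for 10 over 2 mmol/l had adjusted p of 0.0143 and 0.0248. Tmed10, a main partner of Tmed2, was not called at 10 over 5 mmol/l (0.05 ± 0.10 (adjusted p = 0.794)) and was higher at 30 than at 10 mmol/l by 0.35 ± 0.10 (adjusted p = 0.0493), a call lost when any 1 of 13 arrays was left out (adjusted p up to 0.154) and with eBayes without trend, no level filter, median centring and quantile normalization. Tmed1 and Tmed5 were dim and were not called in any comparison.

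The COPI coat returns escaped proteins from the Golgi and has 7 subunits. Its calls went both ways at 10 over 5 mmol/l, where 5 of 12 tested probe sets were higher and 1 lower. Of all probe sets tested, 10.0% were higher and 11.1% lower there. The median log2 change was 0.13 (0.05 after median centring, with 3 higher). At 30 over 10 mmol/l, 5 were higher and 0 lower, with a median of 0.34. Copb2, the beta-prime subunit, gave 1002, 1146, 919.5 and 1039 at 2 mmol/l, then 976, 958, 906 and 764 at 5 mmol/l. Copb2 had 1459, 1312, 1402 and 1441 at 10 mmol/l, then 1804, 1887, 1928 and 1722 at 30 mmol/l. The 2 and 5 mmol/l arrays overlapped, and the 10 and 30 mmol/l arrays formed separate groups above them. Copb2 was higher at 10 than at 5 mmol/l by 0.64 ± 0.08 (adjusted p = 2.52e-05), 1.56-fold, and at 30 than at 10 mmol/l by 0.39 ± 0.08 (adjusted p = 0.00886). Copa, the alpha subunit and partner of Copb2, gave 1891, 1907, 1790.0 and 1883 at 2 mmol/l, then 1666, 1766, 1712 and 1581 at 5 mmol/l. Copa had 2608, 2724, 2672 and 2156 at 10 mmol/l, then 2973, 3265, 3193 and 2667 at 30 mmol/l. Every 5 mmol/l array lay below every 2 mmol/l array, and the 10 mmol/l arrays lay above both. Copa was higher at 10 than at 5 mmol/l by 0.59 ± 0.08 (adjusted p = 3.4e-05), 1.51-fold, and its difference for 30 over 10 mmol/l, 0.25 ± 0.08 (adjusted p = 0.0611), had an adjusted p of 0.00573 under the block.

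Cope, the epsilon subunit that binds Copa, gave 872, 684, 710.4 and 814 at 2 mmol/l, then 817, 596, 647 and 949.5 at 5 mmol/l. Cope had 983, 904, 1042 and 1242 at 10 mmol/l, then 1436, 1594, 1574 and 1609 at 30 mmol/l. The 30 mmol/l arrays were far above all others, and the highest 5 mmol/l array exceeded the lowest 10 mmol/l array. Cope was higher at 30 than at 10 mmol/l by 0.58 ± 0.13 (adjusted p = 0.00958), 1.5-fold, at 10 than at 5 mmol/l by 0.49 ± 0.13 (adjusted p = 0.0108) and at 10 than at 2 mmol/l by 0.43 ± 0.13 (adjusted p = 0.0142), the last being lost without the array of replicate 4 at 10 mmol/l (adjusted p = 0.0545) and with median centring. The call for 10 over 5 mmol/l was also lost with median centring.

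Arcn1, the delta subunit, had its lowest mean at 10 mmol/l, the concentration at which Copa, Copb2 and Cope were already higher. Its signals were 1586, 1575, 1266 and 1593 at 2 mmol/l, then 1412, 1335, 1274 and 1215 at 5 mmol/l. Arcn1 had 1163, 1194, 948 and 956 at 10 mmol/l, then 1492, 1621, 1549 and 1590.3 at 30 mmol/l. The 10 mmol/l arrays lay below all others, and the 30 mmol/l arrays overlapped those at 2 mmol/l. Arcn1 was lower at 10 than at 2 mmol/l (-0.50 ± 0.09 (adjusted p = 0.000354)) and at 10 than at 5 mmol/l (-0.30 ± 0.09 (adjusted p = 0.0233)), and higher at 30 than at 10 mmol/l by 0.56 ± 0.09 (adjusted p = 0.000974), 1.47-fold. The call for 10 over 5 mmol/l was lost with eBayes without trend. It was also lost without replicate 1 or 2 at 5 mmol/l, or replicate 3 or 4 at 10 mmol/l (adjusted p up to 0.0863). The other Arcn1 probe set was not called for 10 over 5 mmol/l (-0.14 ± 0.11 (adjusted p = 0.426)). Copb1, the beta subunit, averaged 1711 ± 55.6 at 2 mmol/l, then 1477 ± 56.8 at 5 mmol/l, then 1463 ± 66.1 at 10 mmol/l and then 1916 ± 105 at 30 mmol/l (mean ± SD, n = 4 each). It was lower at 10 than at 2 mmol/l (-0.23 ± 0.06 (adjusted p = 0.00858)) and higher at 30 than at 10 mmol/l by 0.39 ± 0.06 (adjusted p = 0.000803).

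The paralog pairs of the coat were mixed. Copz2, the second zeta subunit, gave 216, 167, 187 and 193 at 2 mmol/l, then 316, 259, 229.5 and 278 at 5 mmol/l. Copz2 had 225, 283, 239 and 259 at 10 mmol/l, then 267, 273, 311 and 284 at 30 mmol/l. Its 5 mmol/l arrays lay above its 2 mmol/l arrays and overlapped those at 10 mmol/l. Copz2 was higher at 5 than at 2 mmol/l by 0.50 ± 0.11 (adjusted p = 0.0253), a call lost when any 1 of these arrays was left out: replicates 2 and 4 at 2 mmol/l and replicates 1 and 4 at 5 mmol/l (adjusted p up to 0.1) and with eBayes without trend, and higher at 10 than at 2 mmol/l by 0.40 ± 0.11 (adjusted p = 0.0104), a call lost with median centring. Copg1 was higher at 10 than at 5 mmol/l by 0.32 ± 0.09 (adjusted p = 0.0191), a call lost when any 1 of 3 arrays was left out (adjusted p up to 0.062) and with median centring. Its paralog Copg2 averaged 353 ± 14.5 at 2 mmol/l, then 338 ± 60.2 at 5 mmol/l, then 296 ± 32.7 at 10 mmol/l and then 234 ± 21.4 at 30 mmol/l (mean ± SD, n = 4 each). It was not called without the block, and with it Copg2 was lower at 30 than at 10 mmol/l (-0.34, adjusted p = 0.0217) and at 10 than at 2 mmol/l (-0.26, adjusted p = 0.0369). The difference between the paralogs was not tested.

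**Figure D4:**
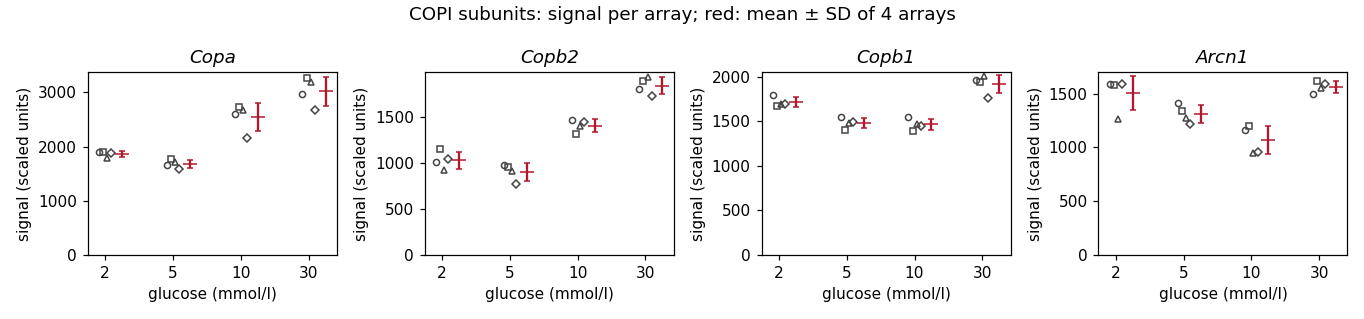
Signal in scaled units (vertical axis, from 0) against glucose in mmol/l (horizontal axis, groups evenly spaced) for 4 COPI subunits, with 1 symbol per array, its shape marking the replicate number, and the mean ± SD of 4 arrays in red. Copa and Copb2 are higher at 10 than at 5 mmol/l, whereas Arcn1 has its lowest mean at 10 mmol/l. Copb1 was not called between 5 and 10 mmol/l (-0.01 ± 0.06). Copb1 and Arcn1 are higher at 30 than at 10 mmol/l.

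Promoters were searched for motifs of the unfolded protein response, in which the factors XBP1 and ATF6 bind such elements in genes of the secretory route. RefSeq promoter sequences (assembly GRCr8, 250 bases before to 50 after the annotated start) were found for 63 of the 71 genes, as 65 promoters. On both strands, the motif TGACGTGG, the UPRE, was found in 4 of these (6.15%), against 199 of all 33469 promoters (0.595%). The genes were Copa, Copb1, Copb2 and Srp19, so 3 of the 4 code for COPI subunits. The shorter CCACG, which the UPRE holds on its reverse strand, was found in 38 (58.5%), against 31.6% of all promoters. The longer ERSE, in which a CCAAT box precedes CCACG at a fixed distance, and the ERSE-II were found in 0 of the 65, and in 22 (0.0657%) and 17 (0.0508%) of all. The 3 COPI promoters are shown because their genes share the motif while Copa and Copb2 were higher at 10 than at 5 mmol/l and Copb1 was not (-0.01 ± 0.06 (adjusted p = 0.902)). Capitals mark the UPRE, which reads TGACGTGG on the printed strand of Copa and in reverse complement in the others. A match describes these letters and shows no binding.
Copa (chr13:87078618-87078917, plus strand): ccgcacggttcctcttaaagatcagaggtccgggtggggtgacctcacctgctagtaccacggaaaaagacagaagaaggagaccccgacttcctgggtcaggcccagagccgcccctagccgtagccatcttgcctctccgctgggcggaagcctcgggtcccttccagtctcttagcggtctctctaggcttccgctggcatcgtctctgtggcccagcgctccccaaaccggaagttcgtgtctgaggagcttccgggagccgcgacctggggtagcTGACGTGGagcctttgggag
Copb1 (chr1:177872791-177873090, minus strand): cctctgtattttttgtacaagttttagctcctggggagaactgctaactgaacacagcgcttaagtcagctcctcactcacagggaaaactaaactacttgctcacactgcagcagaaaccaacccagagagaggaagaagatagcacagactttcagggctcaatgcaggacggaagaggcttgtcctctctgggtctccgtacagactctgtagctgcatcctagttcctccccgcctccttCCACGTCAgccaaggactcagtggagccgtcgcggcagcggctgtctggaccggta
Copb2 (chr8:108040437-108040736, plus strand): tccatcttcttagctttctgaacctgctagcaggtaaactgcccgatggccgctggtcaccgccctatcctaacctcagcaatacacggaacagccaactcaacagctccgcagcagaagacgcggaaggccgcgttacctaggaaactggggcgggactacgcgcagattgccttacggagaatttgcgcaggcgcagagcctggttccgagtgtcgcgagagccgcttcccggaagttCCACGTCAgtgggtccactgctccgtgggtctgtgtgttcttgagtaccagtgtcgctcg

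The TRAPP complexes tether vesicles and activate Rab GTPases, and the calls of their 15 genes went both ways. Here 5 of 20 tested probe sets were higher and 2 lower at 10 than at 5 mmol/l, with a median log2 change of -0.08. Of all probe sets tested, 10.0% were higher and 11.1% lower, so the lower calls were near that share. After median centring of the arrays, 2 were higher and 5 lower, with a median of -0.16. At 30 against 10 mmol/l, 1 was higher and 2 lower, where 3.26% and 3.56% of all probe sets were. Trappc2, a small core subunit whose human gene is mutated in a skeletal dysplasia, had the largest change among members called at 10 over 2 mmol/l. Its signals were 256, 191, 265 and 245 at 2 mmol/l, then 325, 296, 352 and 382 at 5 mmol/l. Trappc2 had 546, 593, 663 and 677 at 10 mmol/l, then 553, 387, 565 and 564 at 30 mmol/l. The first 3 concentrations followed each other without overlap, and at 30 mmol/l replicate 2 lay well below the other 3. Trappc2 was higher at 10 than at 2 mmol/l by 1.38 ± 0.13 (adjusted p = 4.46e-07), 2.6-fold, and at 10 than at 5 mmol/l by 0.87 ± 0.13 (adjusted p = 0.000112). The call for 5 over 2 mmol/l, 0.51 ± 0.13 (adjusted p = 0.0474), was lost when any 1 of these arrays was left out: replicates 1, 2 and 4 at 2 mmol/l, replicates 1, 2, 3 and 4 at 5 mmol/l, replicates 2, 3 and 4 at 10 mmol/l and replicates 1, 3 and 4 at 30 mmol/l (adjusted p up to 0.179) and with eBayes without trend, log2 of the signal plus 50, no level filter and median centring. The difference for 30 over 10 mmol/l, -0.27 ± 0.13 (adjusted p = 0.252), had an adjusted p of 0.0424 under the block.

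Trappc2b, a gene named as a copy of Trappc2, gave 1072, 1129, 1082 and 1149.6 at 2 mmol/l, then 1008, 1195, 1138 and 1159 at 5 mmol/l. Trappc2b had 1387, 1562, 1502 and 1512 at 10 mmol/l, then 1217, 1239, 1138 and 1225 at 30 mmol/l. Its 10 mmol/l arrays lay above those at every other concentration. Trappc2b was higher at 10 than at 5 mmol/l by 0.41 ± 0.07 (adjusted p = 0.000253) and lower at 30 than at 10 mmol/l (-0.31 ± 0.07 (adjusted p = 0.0095)). How far the probes of Trappc2 and Trappc2b detect each other's transcript was not tested. Trappc1, a core subunit, gave 875, 875, 860.2 and 856 at 2 mmol/l, then 1001, 1125, 977 and 1160.1 at 5 mmol/l. Trappc1 had 1318, 1430.5, 1378 and 1181 at 10 mmol/l, then 1267, 1310.2, 1260.0 and 1203 at 30 mmol/l. Groups up to 10 mmol/l did not overlap, and the 30 mmol/l arrays lay within the range at 10 mmol/l. Trappc1 was higher at 10 than at 5 mmol/l by 0.32 ± 0.07 (adjusted p = 0.00447) and at 10 than at 2 mmol/l by 0.61 ± 0.07 (adjusted p = 5.66e-06). The call for 10 over 5 mmol/l was lost with median centring. Its call for 5 over 2 mmol/l, 0.29 ± 0.07 (adjusted p = 0.0396), was lost when any 1 of these arrays was left out: replicates 1, 2, 3 and 4 at 2 mmol/l, replicates 1, 2 and 4 at 5 mmol/l and replicate 3 at 30 mmol/l (adjusted p up to 0.109) and with eBayes without trend, median centring and quantile normalization.

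The paralogs Trappc6a and Trappc6b, alternative core subunits, were called at different steps, a difference that was not tested. Trappc6a gave 169.8, 185, 228 and 215 at 2 mmol/l, then 306, 287, 328 and 325 at 5 mmol/l. Trappc6a had 242, 238, 252 and 275 at 10 mmol/l, then 152, 134, 113 and 196 at 30 mmol/l. Its 5 mmol/l arrays were above all others, and its 30 mmol/l arrays below all 10 mmol/l ones. Trappc6a was higher at 5 than at 2 mmol/l by 0.65 ± 0.14 (adjusted p = 0.022), 1.57-fold, a call lost when any 1 of these arrays was left out: replicates 1 and 2 at 2 mmol/l and replicates 1 and 3 at 5 mmol/l (adjusted p up to 0.0775). It was lower at 30 than at 10 mmol/l (-0.79 ± 0.14 (adjusted p = 0.00195)), with a level 0.58 times that at 10 mmol/l, the largest decrease among members called at that step. For 10 over 2 mmol/l the difference of 0.35 ± 0.14 (adjusted p = 0.065) had an adjusted p of 0.0244 under the block.

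Trappc6b gave 1215, 1413, 1307 and 1214 at 2 mmol/l, then 1094, 1272, 1136 and 1173 at 5 mmol/l. Trappc6b had 873, 811, 930.0 and 1008 at 10 mmol/l, then 752, 745, 782 and 808 at 30 mmol/l. The 10 mmol/l arrays lay below all 5 mmol/l arrays and the 30 mmol/l arrays below all at 10 mmol/l. Trappc6b was lower at 10 than at 5 mmol/l (-0.37 ± 0.08 (adjusted p = 0.00214)) and at 10 than at 2 mmol/l (-0.51 ± 0.08 (adjusted p = 6.94e-05)), and its difference for 30 over 10 mmol/l, -0.23 ± 0.08 (adjusted p = 0.0943), had an adjusted p of 0.0383 under the block. Trappc4, another core subunit, gave 704, 621, 604 and 603 at 2 mmol/l, then 621, 548, 509 and 576 at 5 mmol/l. Trappc4 had 433, 476, 462 and 457 at 10 mmol/l, then 422, 395, 470.5 and 441 at 30 mmol/l. Its 10 mmol/l arrays lay below all at 5 mmol/l and overlapped those at 30 mmol/l. Trappc4 was lower at 10 than at 5 mmol/l (-0.30 ± 0.08 (adjusted p = 0.0153)) and at 10 than at 2 mmol/l (-0.47 ± 0.08 (adjusted p = 0.000285)), the first call being lost without the array of replicate 1 at 5 mmol/l (adjusted p = 0.0557). Trappc12 was higher at 10 than at 5 mmol/l by 0.25 ± 0.08 (adjusted p = 0.0251), Trappc8 was lower at 10 than at 2 mmol/l (-0.33 ± 0.08 (adjusted p = 0.00597)), and Trappc13 was higher at 30 than at 10 mmol/l by 0.26 ± 0.07 (adjusted p = 0.0359). The Trappc12 call was lost when any 1 of 5 arrays was left out (adjusted p up to 0.084) and with median centring, and the Trappc13 call when any 1 of 6 arrays was left out (adjusted p up to 0.0995) and with eBayes without trend, median centring and quantile normalization.

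**Figure D5:**
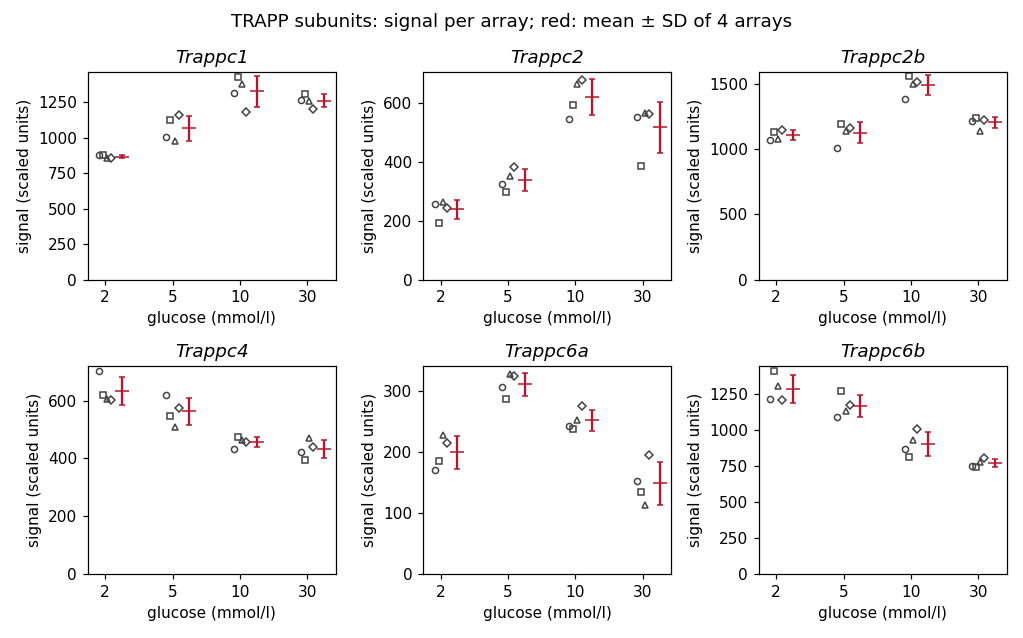
Signal in scaled units (vertical axis, from 0) against glucose in mmol/l (horizontal axis, groups evenly spaced) for 6 TRAPP subunits, with 1 symbol per array, its shape marking the replicate number, and the mean ± SD of 4 arrays in red. Trappc1, Trappc2 and Trappc2b have their highest means at 10 mmol/l, Trappc6a at 5 mmol/l, and Trappc4 and Trappc6b at 2 mmol/l.

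Ssrp1, a subunit of the histone chaperone FACT, gave 744, 547, 715 and 664 at 2 mmol/l, then 666, 698, 733 and 714 at 5 mmol/l. Ssrp1 had 564, 474, 514 and 569 at 10 mmol/l, then 524, 499, 519 and 574 at 30 mmol/l. All its 10 mmol/l arrays lay below its 5 mmol/l arrays. It was lower at 10 than at 5 mmol/l (-0.41 ± 0.09 (adjusted p = 0.00399)) and accounts for 1 of the 4 member probe sets lower at that step and for 1 of the 10 lower at 10 than at 2 mmol/l.

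Several members have more than 1 probe set. For the 24 genes with several tested probe sets there are 96 pairs of a gene and a comparison, of which 0 held calls in opposite directions (2 with the replicate block, Sar1a for 5 over 2 and Sec63 for 10 over 2 mmol/l) and 26 held calls in some but not all probe sets. Both tested probe sets of Sec61a1, Sar1a, Sec16a, Sec22b and Copg1 were higher at 10 than at 5 mmol/l. Both of Arcn1 were lower at 10 than at 2 mmol/l and higher at 30 than at 10 mmol/l. For 10 over 2 mmol/l, only 1 of the probe sets of Sec16a, of Sec22b and of Copg1 was called. Their brightest and other probe sets changed by 0.57 and -0.05 (Sec16a), 0.47 and 0.16 (Sec22b) and 0.13 and 0.78 (Copg1).

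Neighbouring genes of the route that the symbol rule leaves out were counted in the same fit. For all lists below, the shares over all probe sets tested were 10.0% higher and 11.1% lower at 10 over 5 mmol/l. They were 15.6% and 16.9% at 10 over 2 mmol/l, and 3.26% and 3.56% at 30 over 10 mmol/l. Of 12 oligosaccharyltransferase subunits, which glycosylate chains at the channel, 10 were higher and 0 lower at 10 than at 5 mmol/l, with a median log2 change of 0.37. Its subunits Rpn1, Rpn2 and Dad1 were higher by 0.50 ± 0.07 (adjusted p = 2.54e-05), 0.57 ± 0.09 (adjusted p = 0.000105) and 0.40 ± 0.07 (adjusted p = 0.000245). Of other insertion factors of the ER, including the EMC and GET routes, 3 were higher and 2 lower of 21 at that step. Their median was 0.00, and both counts were not far from the shares over all probe sets. Among them Tram1, a channel partner, was higher by 0.58 ± 0.06 (adjusted p = 3.14e-06) and Nomo1 by 0.59 ± 0.14 (adjusted p = 0.0046). Camlg, the GET receptor subunit, was higher at 30 than at 10 mmol/l by 0.59 ± 0.10 (adjusted p = 0.00199).

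Of 13 regulators of the COPII and COPI coats, 5 were higher and 0 lower at 10 than at 5 mmol/l (median 0.24), including the GTPase Arf4 by 0.53 ± 0.07 (adjusted p = 2.51e-05), the cargo exporter Mia3 by 0.56 ± 0.10 (adjusted p = 0.000405) and Tfg by 0.36 ± 0.07 (adjusted p = 0.001). Of 15 cargo and retrieval receptors, 8 were higher and 1 lower at 10 than at 5 mmol/l and 8 were higher and 0 lower at 30 than at 10 mmol/l, with medians of 0.30 and 0.24. Surf4, an export receptor, was higher at 10 than at 5 mmol/l by 0.65 ± 0.07 (adjusted p = 1.83e-06), the KDEL receptor Kdelr2 by 0.58 ± 0.06 (adjusted p = 4.21e-06), and Yipf5 by 0.68 ± 0.07 (adjusted p = 3.14e-06). Of 19 other tethers and SNAREs, 8 were higher and 3 lower at 10 than at 5 mmol/l and 7 were higher and 0 lower at 30 than at 10 mmol/l, with Scfd1, Bet1 and Uso1 higher at the first of these steps by 0.70 ± 0.07 (adjusted p = 1.56e-06), 0.56 ± 0.07 (adjusted p = 9.15e-06) and 0.57 ± 0.06 (adjusted p = 4.24e-06).

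Of 7 transcription factors known for control of secretory genes, 2 were higher and 1 lower at 10 than at 5 mmol/l. Creb3 averaged 297 ± 23.2 at 2 mmol/l, then 283 ± 27.5 at 5 mmol/l, then 381 ± 34.4 at 10 mmol/l and then 530.4 ± 26.8 at 30 mmol/l (mean ± SD, n = 4 each) and was higher at 10 than at 5 mmol/l by 0.43 ± 0.09 (adjusted p = 0.00294) and at 30 than at 10 mmol/l by 0.48 ± 0.09 (adjusted p = 0.00448). Xbp1 was higher at 10 than at 5 mmol/l by 0.19 ± 0.06 (adjusted p = 0.0409), a call lost when any 1 of 7 arrays was left out (adjusted p up to 0.114) and with eBayes without trend, no level filter, median centring and quantile normalization, and Atf6 was lower (-0.58 ± 0.14 (adjusted p = 0.00723)).

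Other measures also moved with glucose, and their part in the changes above was not tested. Of the islet markers, 3 were higher and 0 lower of 8 at 10 than at 5 mmol/l and 6 higher and 1 lower at 10 than at 2 mmol/l, with summed signals of 32720.0 to 40431 at 2 mmol/l, then 39814 to 47399 at 5 mmol/l, then 47616 to 61228 at 10 mmol/l and then 44753 to 52995 at 30 mmol/l. Of those 3 calls, those of Iapp and Sst were lost with quantile normalization and that of Chga with median centring. For 10 over 2 mmol/l, quantile normalization ended the calls of Ins1, Ins2, Iapp and Gcg and kept those of Sst and Chga. The marker called lower was Pdx1 (-0.42 ± 0.15 (adjusted p = 0.0416)). Its call was lost when any 1 of 5 arrays was left out (adjusted p up to 0.159) and with eBayes without trend, no level filter and quantile normalization. Of the duct markers, Krt7 was lower at 10 than at 5 mmol/l (-0.64 ± 0.08 (adjusted p = 1.28e-05)) and Krt19 was not called. The 5 with a probe set summed to 1392 to 1722 at 2 mmol/l, then 1523 to 1736 at 5 mmol/l. Their sum was 1043 to 1174 at 10 mmol/l and then 867 to 930.4 at 30 mmol/l. Most of that sum is Krt7, which averaged 1417 at 2 mmol/l and 792 at 30 mmol/l. Cftr, Spp1 and Muc1 were too dim to be tested. They averaged 12.5, 19.7 and 17.4 at 2 mmol/l, and 22.9, 15.5 and 18.3 at 30 mmol/l. At 10 over 5 mmol/l, 0 of 4 endothelial and 0 of 8 stellate cell markers were called and of 5 macrophage and leukocyte markers only C1qa was, higher by 0.42 ± 0.14 (adjusted p = 0.0407), a call lost when any 1 of 6 arrays was left out (adjusted p up to 0.142) and with no level filter and median centring. The ratio of 3′ to 5′ signal of the Actb control, a sign of RNA integrity, was 1.58 to 1.89 at 2 mmol/l, then 1.98 to 2.16 at 5 mmol/l, then 1.93 to 2.24 at 10 mmol/l and then 1.93 to 2.13 at 30 mmol/l. The same ratio of the Gapdh control overlapped between all groups. It was 0.771 to 0.925 at 2 mmol/l, then 0.752 to 0.886 at 5 mmol/l, then 0.716 to 0.852 at 10 mmol/l and then 0.823 to 0.933 at 30 mmol/l.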

How the data were processed

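RNA of 16 cultures was read on Affymetrix Rat230_2 arrays. The deposited values are intensity signals on a linear scale, produced by the authors in GCOS, per the submitters' processing notes; the software's version and settings are not given in the sources used here. A floor of 3.4, the 10th percentile of the table, was applied before log2 was taken, and 57 AFFX control probe sets stayed out of the tests. The upper 60% of probe sets by mean level (18625) were tested with limma 3.58.1 in R 4.3.3 (lmFit over all arrays, eBayes with trend, two-sided tests, Benjamini-Hochberg over every probe set tested). Calls are at an adjusted p under 0.05. Every adjusted p is limma's, and changes are log2 differences ± SE with n = 4 arrays per group. Summaries and figures were made with Python 3.11.15.

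In the platform annotation 20826 probe sets have a single symbol, 436 have several and 9780 have no symbol. The members, the gene lists and the comparisons were chosen with earlier results of these data known. Named with all values are Sec61b and Trappc6a, in each role the 3 tested genes with the smallest F-test p, and in each comparison up to 5 increases and 5 decreases of largest size among called members. Other members are named where a count or a disagreement concerns them. Outside the rule, lists of oligosaccharyltransferase, ER insertion factors, coat regulators, cargo receptors, tethers and SNAREs, transcription factors and cell type markers were counted, with up to 3 genes of each named by smallest p and, of the markers, the genes that a count concerns.

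Each experiment had its own islets, per the design text. The p-values without a block measure the spread between preparations within a concentration, and leave in what a preparation shares across concentrations. The replicate block takes that shared part out. Whether replicate numbers pair the arrays was checked on the deviations from group means: correlations were 0.136 to 0.434 over 24 pairs sharing a number and -0.264 to 0.130 over 72 others, and all 16 arrays matched best with an array of their own number. There were 3 scan days and 2 chip lots, and replicates 2 and 3 shared both. The alternatives were a replicate block, a scan-day block, quantile normalization or median centring, other level filters, log2 of the signal plus 50, eBayes without trend, and the omission of single arrays or of all arrays of a number. Promoters were matched by symbol. The fit was tested on simulated data.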

Additional observations from a re-analysis of the deposited data

Results flagged for a closer look

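Among 148 groups of 4 arrays (37 named genes at 4 concentrations), 13 held an array that stood far from the other 3, and chance gives about 1 in 20 groups. Arcn1 had a signal of 1265.7 in replicate 3 at 2 mmol/l, and the other 3 arrays had 1575.1 to 1592.9. Sec13 had a signal of 616.4 in replicate 3 at 5 mmol/l, and the other 3 arrays had 698.1 to 714.6. Sec31a had a signal of 118.7 in replicate 4 at 5 mmol/l, and the other 3 arrays had 141.5 to 146.2. Srp14 had a signal of 2752.4 in replicate 1 at 5 mmol/l, and the other 3 arrays had 2033.4 to 2147.1. Srp9 had a signal of 1382.5 in replicate 4 at 2 mmol/l, and the other 3 arrays had 1574.8 to 1606.2. Srp9 had a signal of 2050.3 in replicate 4 at 30 mmol/l, and the other 3 arrays had 2140.0 to 2153.2. Ssr1 had a signal of 2619.5 in replicate 4 at 10 mmol/l, and the other 3 arrays had 3249.5 to 3284.7. Ssr4 had a signal of 4129.2 in replicate 1 at 10 mmol/l, and the other 3 arrays had 4567.6 to 4656.9. Trappc2 had a signal of 387.4 in replicate 2 at 30 mmol/l, and the other 3 arrays had 552.6 to 564.6. Tmed2 had a signal of 3273.1 in replicate 2 at 2 mmol/l, and the other 3 arrays had 2958.1 to 2978.6. Tmed2 had a signal of 3758.9 in replicate 2 at 5 mmol/l, and the other 3 arrays had 3188.6 to 3274.3. Spcs3 had a signal of 3089.2 in replicate 4 at 5 mmol/l, and the other 3 arrays had 3388.3 to 3424.1. Sec61b had a signal of 2595.0 in replicate 3 at 2 mmol/l, and the other 3 arrays had 2879.1 to 2909.2.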

How the results depend on the processing

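Of 80 calls of named members in the 4 comparisons, 64 were kept without each single array and 16 were lost without some array, each named with its result above. All 16 also ended without all arrays of some replicate number, as did some of the 64. Those were Cope, Srp14, Ssrp1 and Trappc1 (number 3) and Tmed2 (3 or 4) for 10 over 5 mmol/l. For 10 over 2 mmol/l they were Copz2 (2 or 4) and Ssrp1 (1 or 3). For 30 over 10 mmol/l they were Copb2 and Cope (2 or 3), Sec61a1 (2 or 4) and Trappc2b (2, 3 or 4). The alternatives run gave 3276 values for named genes, which are the log2 changes of these calls together with adjusted p of the F-test. None of the changes, which alone have a sign, took the opposite one. Of all these values, 207 were no longer past the threshold. The replicate block and the scan-day block ended 0 named calls each, as did the stricter filter. Quantile normalization ended 12, median centring 11, the omission of the filter 6, eBayes without trend 11 and log2 of the signal plus 50 ended 1. Apart from the values printed with it above, the replicate block changed no call of the brightest probe set of a gene named by the rule. In their dimmer probe sets it also added calls in the 4 comparisons, which are Sec22c for 5 over 2 (adjusted p = 0.0438) and 30 over 10 mmol/l (0.0386), Sec61a1 for 30 over 10 (0.000694), Sec16a for 5 over 2 (0.0152), Tmed7 for 10 over 5 (0.002) and 10 over 2 (0.0187) and Tmed9 for 10 over 5 mmol/l (0.0152).

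Counts that moved by over 1.5 times were these; the cause was not tested. The replicate block gave 1839 probe sets called for 5 over 2 mmol/l, of which 11 members were higher and 8 lower, and 2754 for 30 over 10 mmol/l, with 7 members lower. Scan day as a block gave 1254 and 2081 called, with 5 members lower for 5 over 2 mmol/l. Quantile normalization gave 8 members lower for 5 over 2 and 15 higher for 30 over 10 mmol/l. Median centring gave 298 called and 3 members higher for 5 over 2, and 31 higher and 7 lower for 10 over 5 mmol/l. For 5 over 2 mmol/l, 2 members were lower with the stricter filter and 1 with log2 of the signal plus 50. Without trend, 180 probe sets were called and 1 member was higher for 5 over 2, and 14 members were higher for 30 over 10 mmol/l. With these settings unchanged the counts are 485 for 5 over 2, 3935 for 10 over 5, 6064 for 10 over 2 and 1271 for 30 over 10 mmol/l.

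Without 1 array, probe sets called ranged over 103 to 474 for 5 over 2, 3114 to 3919 for 10 over 5 and 804 to 1285 for 30 over 10 mmol/l. Members higher then ranged over 0 to 7 for 5 over 2 and 13 to 24 for 30 over 10 mmol/l, and members lower over 0 to 1 for 5 over 2 and 2 to 5 for 10 over 5 mmol/l. The 2 lower at 10 than at 5 mmol/l came without replicate 1 at 5 mmol/l. Without all 4 arrays of a replicate number, probe sets called were 25 to 65 for 5 over 2, 2510 to 2960 for 10 over 5 and 383 to 824 for 30 over 10 mmol/l. Members higher were then 0 for 5 over 2 and 9 to 13 for 30 over 10 mmol/l, and members lower were 0 to 1, 2 to 4 (10 over 5), 6 to 8 (10 over 2) and 1 to 3 (30 over 10 mmol/l). Dim probe sets, those under the 60% kept, were not tested, which limits the module little (4 of 108).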
